A study of Mus musculus with 48 samples.

Results

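The genes described here encode the enzymes of glycolysis, the switches that set how carbon leaves it, and the best known targets of the hypoxia-inducible factors (HIFs). The list holds 34 genes, chosen by name with earlier results of these data known. Of these, 29 were measured on a probe set that the annotation gives to 1 gene symbol, and 28 of the 29 had a mean log2 intensity no lower than the array-wide median, among 11565 genes that passed the same filter. Gpi1 and Eno1 were not listed in the probe annotation used here, and Aldoa, Bnip3l and Ankrd37 share their probe sets with another symbol, so no value is given for these 5. The probe set of Slc16a3, a lactate exporter, was too dim for the filter, with a mean log2 intensity of 2.44 against a limit of 3.11, and its sub-clone means lay between -0.06 and 0.34.

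RNA was measured on 48 microarrays of 4T1 cells, a mammary carcinoma line of Balb/c mice, carrying either of 2 reporters, a green fluorescent one joined to firefly luciferase (GFP/fL) and a red one, mCherry, joined to Renilla luciferase (mCh/rL). Each parental line had 4 arrays, and 13 sub-clones had 3 arrays each, with 1 more for MFP tumor 1. The groups were 2 GFP/fL sub-clones of tumors grown in the mammary fat pad (MFP), at day 28, 4 mCh/rL sub-clones from tumors of injected axillary lymph nodes (AxLN) at day 7 or 14, 4 mCh/rL sub-clones of metastases that reached the lung in mice given cells in that node (AxLN-LuM), at day 14, 36 or 43, and 3 sub-clones of lung metastases seeded through the tail vein (TV-LuM), at day 14 or 38, whose reporter the labels do not give. The animals were adult female Balb/c mice, and each sub-clone was a culture regrown from 1 tumor or metastasis under thioguanine selection, so all values describe cells in culture and not tissue, and a smaller share of expressing cells cannot be told apart from less RNA per cell. The oxygen level of the cultures is not given in the sources used here. The arrays were run on 2 plates, and values below are log2 intensities minus the mean of the parental arrays of both lines on the same plate, averaged over the cultures of a sub-clone. The labels mark AxLN tumor 1 day 14, AxLN-LuM 5 day 14 and the additional array of MFP tumor 1 as removed. Both sub-clones are shown but did not enter the comparisons between groups, and the array was left out. The labels name different source samples for AxLN-LuM 1 at days 14, 36 and 43, and for AxLN tumor 2 at days 7 and 14. Their values at several days are therefore not a time course of a single lesion. For AxLN tumor 1 day 14 and for TV-LuM 1 at days 14 and 38 the labels name no source sample. Values of those numbers are not read as a time course either. The comparisons between groups count sub-clones that share a number as separate replicates, and whether they are independent was not tested.

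Under low oxygen, the prolyl hydroxylases of the Egln family no longer mark HIF-1 alpha for destruction, and the factor then binds short sites near its target genes and raises glucose uptake, glycolytic enzymes, blood vessel growth factors and pH regulators. Many tumor cells also keep part of this program on in the presence of oxygen, a habit known as aerobic glycolysis. HIF-1 alpha itself is controlled mainly through protein stability, so the level of its mRNA says little about its activity.

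All 6 epithelial tumor cell markers, among them Krt8, Krt18 and Epcam, were above the filter in these cultures. Of the host cell markers measured, 0 of 6 for leukocytes, 0 of 4 for endothelium, 1 of 4 for lung epithelium and 2 of 8 for fibroblasts passed it. The fibroblast list had a summed intensity of 130 to 177 in parental arrays, 230 to 465 in MFP, 136 to 231 in AxLN, 81.2 to 363 in AxLN-LuM and 105 to 294 in TV-LuM, and most of it came from Pdgfra. The cell cycle list was lowest in AxLN-LuM 5 day 14, where its median was -1.68. Its median lay at -0.72, -0.58 and -0.41 in AxLN tumor 2 day 7, AxLN tumor 1 day 7 and AxLN tumor 2 day 14, at -0.46 and -0.35 in TV-LuM 2 day 14 and TV-LuM 1 day 38, and between -0.16 and 0.15 in the others, and its part in the values below was not tested.

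Members were spread more widely between sub-clones than most genes on the array. Because the list was chosen with earlier results of these data known, this describes the list and is no test of the pathway. The range of the 13 sub-clone means had a median of 1.32 on the log2 scale over the 28 members and 0.87 over all genes, and 20 members had a range above 1, or 71.4% against 38.5%. In an F test among the 13 sub-clones (limma, Benjamini-Hochberg adjusted p under 0.05), 28 of 28 members differed, as did 88.2% of all genes, so that the test alone does not set the members apart. The spread between cultures of 1 sub-clone was small beside this, with a median SD of 0.03 to 0.28 for each member.

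Which members moved, and which way, differed from one sub-clone to the next. MFP tumor 1 had 19 of 28 members called higher than the parental lines and 0 lower, against 24.4% and 26.3% of all genes. MFP tumor 2 had 13 higher and 3 lower, against 19.4% and 20.2%. Both MFP sub-clones thus held more raised members than the array as a whole and fewer lowered ones. Among AxLN sub-clones, AxLN tumor 1 day 7 had 10 higher and 9 lower, against 22.4% and 26.0%. AxLN tumor 2 day 7 had 6 higher and 13 lower, against 24.8% and 29.7%. For AxLN tumor 2 day 14 the counts were 10 and 8, against 24.8% and 26.5%, and for AxLN tumor 1 day 14 they were 7 and 7, against 17.9% and 14.8%. Lowered members made up 46.4% of the list in AxLN tumor 2 day 7 and 25% in AxLN tumor 1 day 14, and raised members 35.7% in AxLN tumor 1 day 7, each above the share of all genes.

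The lung sub-clones split within their own groups. AxLN-LuM 1 day 14 had 12 members higher and 4 lower, against 23.8% and 22.2% of all genes, and AxLN-LuM 1 day 43 had 18 higher and 3 lower, against 19.4% and 23.2%. AxLN-LuM 1 day 36 went the other way, with 5 higher and 12 lower, against 22.7% and 24.5%, as did AxLN-LuM 5 day 14, with 8 higher and 15 lower, against 36.0% and 27.1%. In TV-LuM sub-clones, TV-LuM 2 day 14 had 15 higher and 6 lower, against 26.9% and 27.3%. TV-LuM 1 day 38 had 3 higher and 18 lower, against 24.0% and 28.4%, while TV-LuM 1 day 14 had 6 and 9, against 19.9% and 21.8%. Cells from lung therefore included both the sub-clone with the most members lowered and one of the sub-clones with the most raised. Over the 13 sub-clones, 239 of 364 member values were called (65.7%), against 48% of the values of all genes, and all sub-clones share the same 8 parental arrays as reference.

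**Figure D1:**
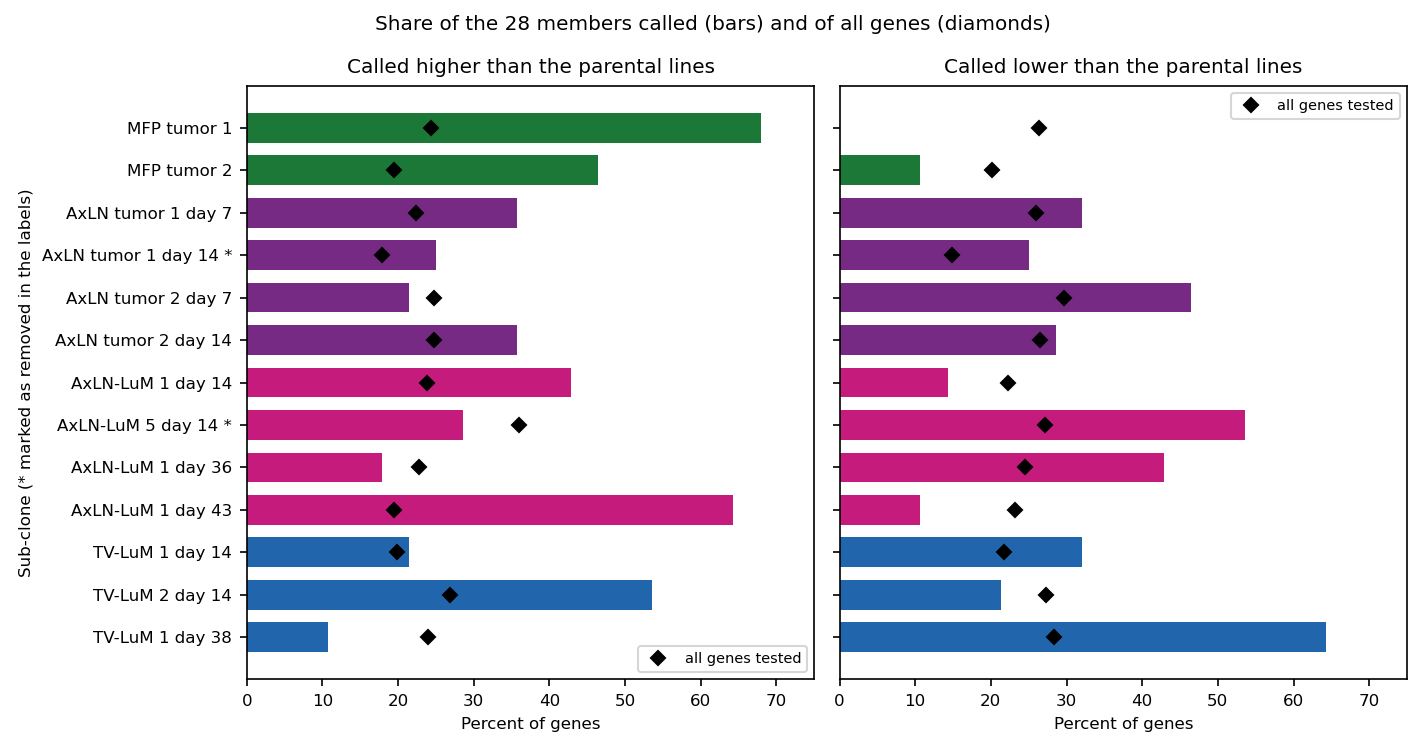
Percent of the 28 members called higher (left) or lower (right) than the parental lines in each of 13 sub-clones (bars, colored by group), with the percent of all 11565 genes as diamonds. MFP tumor 1, with 19 higher and 0 lower, and TV-LuM 1 day 38, with 3 higher and 18 lower, stand at opposite ends.

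**Figure D2:**
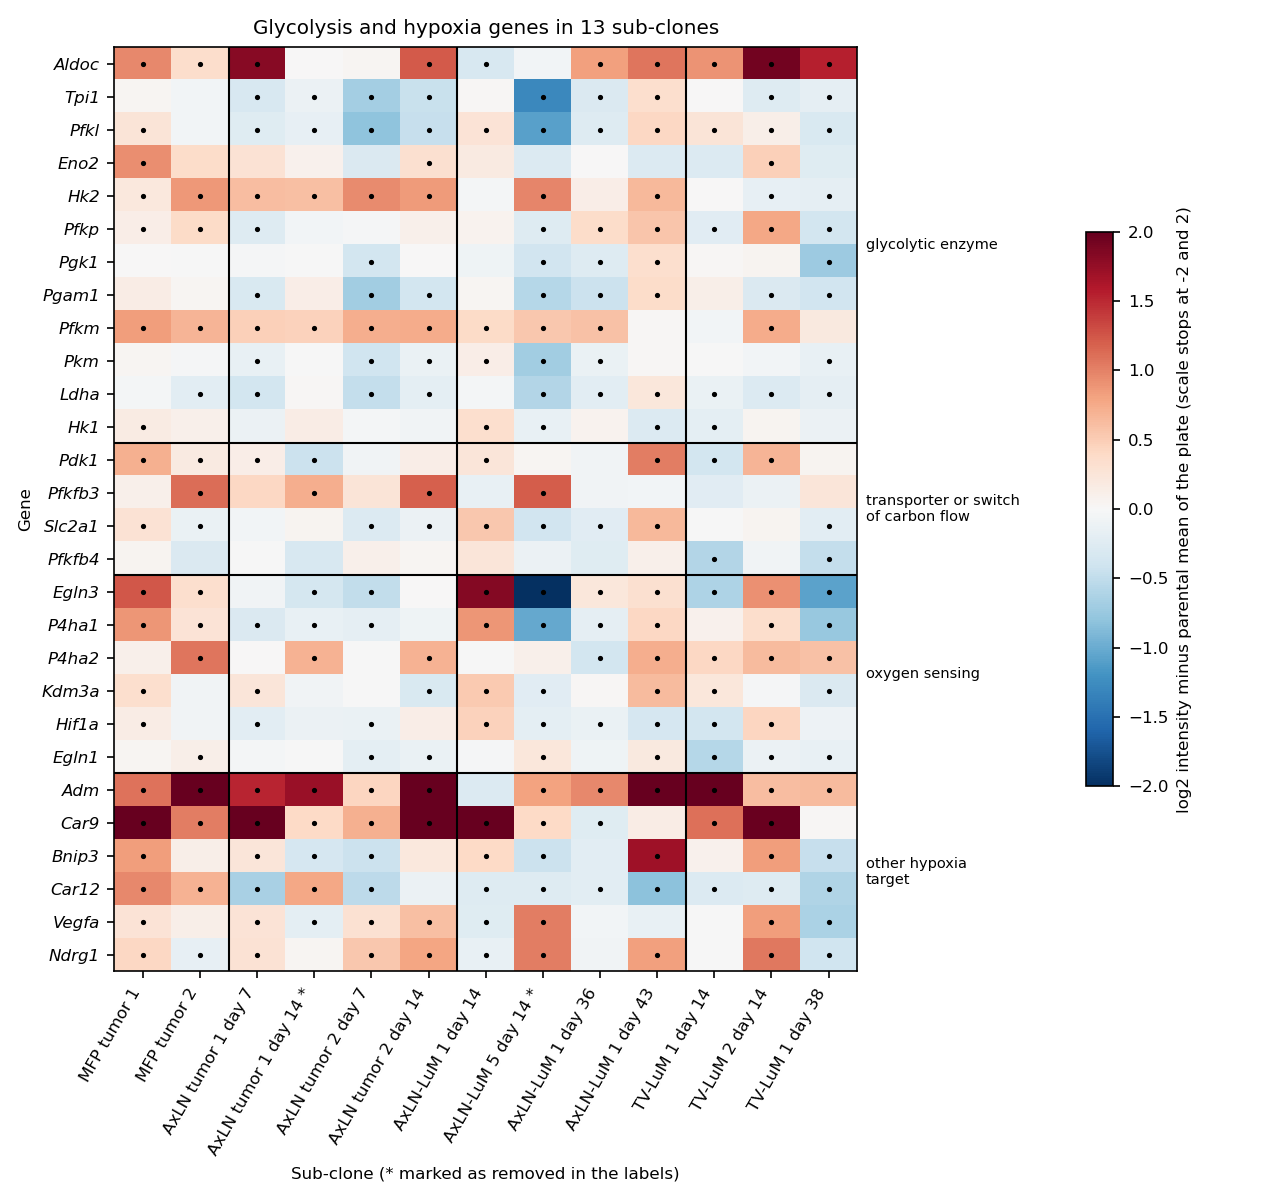
Each cell is the mean log2 intensity of a member in a sub-clone minus the parental mean of the plate, by role, for the 28 members above the filter, and a dot marks a call at an adjusted p under 0.05. Adm, Car9 and Aldoc are red in most columns, whereas Egln3 runs from 1.83 in AxLN-LuM 1 day 14 to -2.36 in AxLN-LuM 5 day 14.

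The HIF complex binds a short core that reads ACGTG or GCGTG. Promoters of 32 of the 34 members, as given by RefSeq (GRCm38.p6, windows of 300 bases that span each transcript start), were searched for both motifs on both strands. At least 1 of the 2 motifs lay in a promoter of 28 of these 32 genes (87.5%), whereas 46.7% of all 27025 genes in the table had one, with no matching for base composition. ACGTG alone lay in a promoter of 65.6% of members and 21.8% of all genes, and GCGTG in 62.5% and 35.2%. The promoters of the 6 members with a single promoter entry among the 8 that varied most are shown so that their motif content can be read beside their values, and capitals mark a motif, written CACGT or CACGC where it lies on the opposite strand. Egln3 is at chr12:54203825-54204124 (minus strand), Adm at chr7:110627407-110627706 (plus), Car9 at chr4:43506776-43507075 (plus), Bnip3 at chr7:138909457-138909756 (minus), P4ha1 at chr10:59323046-59323345 (plus) and Car12 at chr9:66713436-66713735 (plus).
Egln3: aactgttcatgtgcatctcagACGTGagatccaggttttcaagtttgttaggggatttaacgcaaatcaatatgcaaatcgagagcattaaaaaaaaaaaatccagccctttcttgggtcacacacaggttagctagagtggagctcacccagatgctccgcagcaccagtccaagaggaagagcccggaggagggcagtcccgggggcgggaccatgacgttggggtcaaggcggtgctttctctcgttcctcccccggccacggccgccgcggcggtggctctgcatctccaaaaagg
Adm: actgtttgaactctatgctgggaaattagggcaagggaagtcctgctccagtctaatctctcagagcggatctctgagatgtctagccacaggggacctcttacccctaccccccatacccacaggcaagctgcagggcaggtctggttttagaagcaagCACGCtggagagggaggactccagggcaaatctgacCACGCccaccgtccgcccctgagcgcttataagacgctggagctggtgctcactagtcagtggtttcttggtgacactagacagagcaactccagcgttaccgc
Car9: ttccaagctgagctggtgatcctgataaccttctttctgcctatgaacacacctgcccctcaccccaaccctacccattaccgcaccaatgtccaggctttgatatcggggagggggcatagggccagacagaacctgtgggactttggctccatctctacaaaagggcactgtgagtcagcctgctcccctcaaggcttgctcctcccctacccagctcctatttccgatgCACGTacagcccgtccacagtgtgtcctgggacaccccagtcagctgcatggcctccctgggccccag
Bnip3: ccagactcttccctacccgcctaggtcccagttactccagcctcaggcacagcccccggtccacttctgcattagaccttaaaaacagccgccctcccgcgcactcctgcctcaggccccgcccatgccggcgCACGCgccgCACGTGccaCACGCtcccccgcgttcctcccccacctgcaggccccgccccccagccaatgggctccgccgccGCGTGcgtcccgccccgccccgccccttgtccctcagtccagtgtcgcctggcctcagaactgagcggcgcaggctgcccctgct
P4ha1: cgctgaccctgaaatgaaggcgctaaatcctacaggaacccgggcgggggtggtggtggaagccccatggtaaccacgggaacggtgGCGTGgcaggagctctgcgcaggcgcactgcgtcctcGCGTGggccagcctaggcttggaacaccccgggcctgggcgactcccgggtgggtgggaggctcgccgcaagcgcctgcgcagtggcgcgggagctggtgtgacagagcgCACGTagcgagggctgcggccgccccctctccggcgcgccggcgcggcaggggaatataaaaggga
Car12: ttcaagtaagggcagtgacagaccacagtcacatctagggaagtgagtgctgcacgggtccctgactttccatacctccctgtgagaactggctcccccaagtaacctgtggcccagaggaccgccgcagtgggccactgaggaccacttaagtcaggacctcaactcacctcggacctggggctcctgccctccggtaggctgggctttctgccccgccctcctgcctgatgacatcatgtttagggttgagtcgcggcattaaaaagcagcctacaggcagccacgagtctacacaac
Bnip3 held 5 matches, of which the 2 of ACGTG are both strands of a single palindrome, P4ha1 held 3, Adm 2, Car9 1 and Egln3 1. Car12 held 0 in this window. The match of Car9 starts at position -18 and the nearest of P4ha1 at -16 from the transcript start. These matches describe the letters of the window and do not show that a factor binds there.

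Among oxygen sensing genes, Egln3, a prolyl hydroxylase that is itself a HIF target, had the widest range of all members, 4.19 on the log2 scale or 18.3-fold. The 8 parental arrays agreed closely, with log2 intensities of 8.54 to 8.62 in GFP/fL and 8.58 to 8.66 in mCh/rL. Egln3 stood at 1.24 in MFP tumor 1 and 0.34 in MFP tumor 2. AxLN sub-clones were at or below the parental level, at -0.07 in tumor 1 day 7, -0.35 in tumor 1 day 14, -0.49 in tumor 2 day 7 and 0.0007 in tumor 2 day 14. AxLN-LuM sub-clones held both extremes, with 1.83 at day 14, 0.23 at day 36 and 0.33 at day 43 in those numbered 1, and -2.36 in AxLN-LuM 5 day 14. TV-LuM 1 day 14, TV-LuM 2 day 14 and TV-LuM 1 day 38 were at -0.62, 0.92 and -1.07. SDs between cultures were at most 0.154, and 6 sub-clones were called higher and 5 lower (adjusted p = 1.6e-22 in AxLN-LuM 1 day 14 and 4.3e-26 in AxLN-LuM 5 day 14). The low value of AxLN-LuM 5 day 14 stood beside the low cell cycle list of the same cultures.

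P4ha1, a subunit of the prolyl hydroxylase that modifies collagen and a HIF target rather than an oxygen sensor, varied between the same sub-clones, from parental log2 intensities of 8.84 to 8.96 in GFP/fL and 9.14 to 9.25 in mCh/rL. It was highest in MFP tumor 1 at 0.89 and AxLN-LuM 1 day 14 at 0.88, followed by AxLN-LuM 1 day 43 at 0.42, TV-LuM 2 day 14 at 0.36 and MFP tumor 2 at 0.27, all 5 called higher. It was lowest in AxLN-LuM 5 day 14 at -1.02 and TV-LuM 1 day 38 at -0.76. It was also called lower, by less, in AxLN tumor 1 at days 7 and 14, at -0.29 and -0.15, in AxLN tumor 2 day 7 at -0.19 and in AxLN-LuM 1 day 36 at -0.18, and was not called in AxLN tumor 2 day 14 at -0.08 and TV-LuM 1 day 14 at 0.09. The sub-clones at the top and at the bottom were thus those of Egln3, with AxLN-LuM 1 day 36 called higher for Egln3 and lower for P4ha1.

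Hif1a, which encodes the oxygen-regulated HIF subunit, moved far less. Its range was 0.82, and its log2 intensity in parental arrays was 9.02 to 9.11 in GFP/fL and 8.98 to 9.13 in mCh/rL. Hif1a was called higher in AxLN-LuM 1 day 14 at 0.46, TV-LuM 2 day 14 at 0.43 and MFP tumor 1 at 0.15, which are also the 3 sub-clones with the highest Egln3. It was not called in AxLN tumor 2 day 14 at 0.14, MFP tumor 2 at -0.08, TV-LuM 1 day 38 at -0.10 and AxLN tumor 1 day 14 at -0.12. In the other 6 it was called lower, at -0.14 in AxLN tumor 2 day 7, -0.14 in AxLN-LuM 1 day 36, -0.20 in AxLN-LuM 5 day 14, -0.21 in AxLN tumor 1 day 7, -0.33 in AxLN-LuM 1 day 43 and -0.36 in TV-LuM 1 day 14. AxLN-LuM 1 day 43 combined a low Hif1a with 18 raised members. Of the remaining oxygen sensing genes, Egln1, the main HIF prolyl hydroxylase, ranged from -0.56 to 0.23, and the histone demethylase Kdm3a from -0.31 to 0.64. P4ha2, the second collagen hydroxylase subunit, was called higher in 7 sub-clones and lower in 1, with the highest value of 1.07 in MFP tumor 2, so the pair P4ha1 and P4ha2 did not move as one.

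Adm, the gene of the vasodilator adrenomedullin, was raised in more sub-clones than any other member. Parental log2 intensities were 3.35 to 4.03 in GFP/fL and 3.71 to 4.84 in mCh/rL, close to the limit of the filter, and the SD between cultures reached 0.39. It was called higher in 12 of 13 sub-clones and stood at 1.08 and 2.74 in MFP tumors 1 and 2. In AxLN, tumor 1 was at 1.53 and 1.73 at days 7 and 14, and tumor 2 at 0.43 and 2.14. AxLN-LuM 1 was at -0.27, 0.96 and 2.26 at days 14, 36 and 43, AxLN-LuM 5 day 14 at 0.81, and TV-LuM 1 day 14, TV-LuM 2 day 14 and TV-LuM 1 day 38 at 2.05, 0.61 and 0.63. AxLN-LuM 1 day 14, the sub-clone highest in Egln3 and Car9, was the only one not called higher for Adm. Because mCh/rL parental cells had more Adm than GFP/fL cells, the value of AxLN tumor 2 day 7 was 0.07 against its own parental line and was no longer called there, and AxLN-LuM 1 day 14 was called lower, at -0.53.

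Car9, a cell surface carbonic anhydrase and one of the most used markers of hypoxia, was called higher in 10 sub-clones and lower in 1. Its parental log2 intensities were 5.72 to 5.95 in GFP/fL and 5.79 to 6.37 in mCh/rL. It reached 2.67 in AxLN-LuM 1 day 14, 2.38 in MFP tumor 1, 2.24 in AxLN tumor 1 day 7, 2.09 in AxLN tumor 2 day 14 and 1.98 in TV-LuM 2 day 14. Intermediate levels were seen in TV-LuM 1 day 14 at 1.09, MFP tumor 2 at 1.03 and AxLN tumor 2 day 7 at 0.71. The remaining sub-clones lay between -0.24 and 0.41, namely AxLN-LuM 5 day 14 at 0.41, AxLN tumor 1 day 14 at 0.39, AxLN-LuM 1 day 43 at 0.15, TV-LuM 1 day 38 at 0.02 and AxLN-LuM 1 day 36 at -0.24. High and low Car9 thus occurred within AxLN, AxLN-LuM and TV-LuM alike. MFP tumor 1, the only sub-clone on both plates, was at 2.62 on one and 2.26 on the other.

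Car12, the other membrane carbonic anhydrase of the list, was called lower in most sub-clones. Parental log2 intensities were 7.74 to 7.87 in GFP/fL and 7.41 to 7.72 in mCh/rL. It was called higher in 3 sub-clones, MFP tumor 1 at 0.96, MFP tumor 2 at 0.70 and AxLN tumor 1 day 14 at 0.77. In the others it was below the parental level, with -0.65 in AxLN tumor 1 day 7, -0.53 and -0.12 in AxLN tumor 2 at days 7 and 14, -0.25, -0.21 and -0.82 in AxLN-LuM 1 at days 14, 36 and 43, -0.26 in AxLN-LuM 5 day 14, and -0.28, -0.26 and -0.61 in TV-LuM 1 day 14, TV-LuM 2 day 14 and TV-LuM 1 day 38. Only AxLN tumor 2 day 14 among these was not called lower. AxLN tumor 1 day 7 and AxLN-LuM 1 day 14, both high in Car9, thus had Car12 below the parental cells.

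Bnip3, a mitochondrial protein that promotes mitophagy, was highest in AxLN-LuM 1 day 43 at 1.70, where the cultures varied by an SD of only 0.03. Parental log2 intensities were 6.58 to 6.85 in GFP/fL and 6.82 to 7.25 in mCh/rL. TV-LuM 2 day 14 at 0.84 and MFP tumor 1 at 0.83 came next, then AxLN-LuM 1 day 14 at 0.39, AxLN tumor 1 day 7 at 0.24, AxLN tumor 2 day 14 at 0.21, MFP tumor 2 at 0.12 and TV-LuM 1 day 14 at 0.08. TV-LuM 1 day 38, AxLN-LuM 5 day 14, AxLN tumor 2 day 7 and AxLN tumor 1 day 14 were called lower, at -0.46, -0.44, -0.43 and -0.34, and AxLN-LuM 1 day 36 was at -0.21. The 2 lowest were again AxLN-LuM 5 day 14 and TV-LuM 1 day 38, as for Egln3 and P4ha1.

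Vegfa, the main growth factor of blood vessels, departed from this order. It was highest in AxLN-LuM 5 day 14 at 1.02, the sub-clone lowest in Egln3, and TV-LuM 2 day 14 at 0.84, from parental log2 intensities of 7.74 to 7.93 in GFP/fL and 8.03 to 8.38 in mCh/rL. AxLN sub-clones were at 0.28 and -0.19 in tumor 1 and 0.31 and 0.60 in tumor 2 at days 7 and 14, and MFP tumors 1 and 2 at 0.27 and 0.11. AxLN-LuM 1 stood at -0.24, -0.06 and -0.15 at days 14, 36 and 43, TV-LuM 1 day 14 at -0.01 and TV-LuM 1 day 38 at -0.63. Ndrg1, a stress-responsive gene also induced by hypoxia, likewise had 1.03 in AxLN-LuM 5 day 14 and 1.05 in TV-LuM 2 day 14, with its lowest value, -0.40, in TV-LuM 1 day 38. In AxLN-LuM 5 day 14, Vegfa and Ndrg1 were thus raised in cells with low Egln3, P4ha1 and Bnip3.

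**Figure D3:**
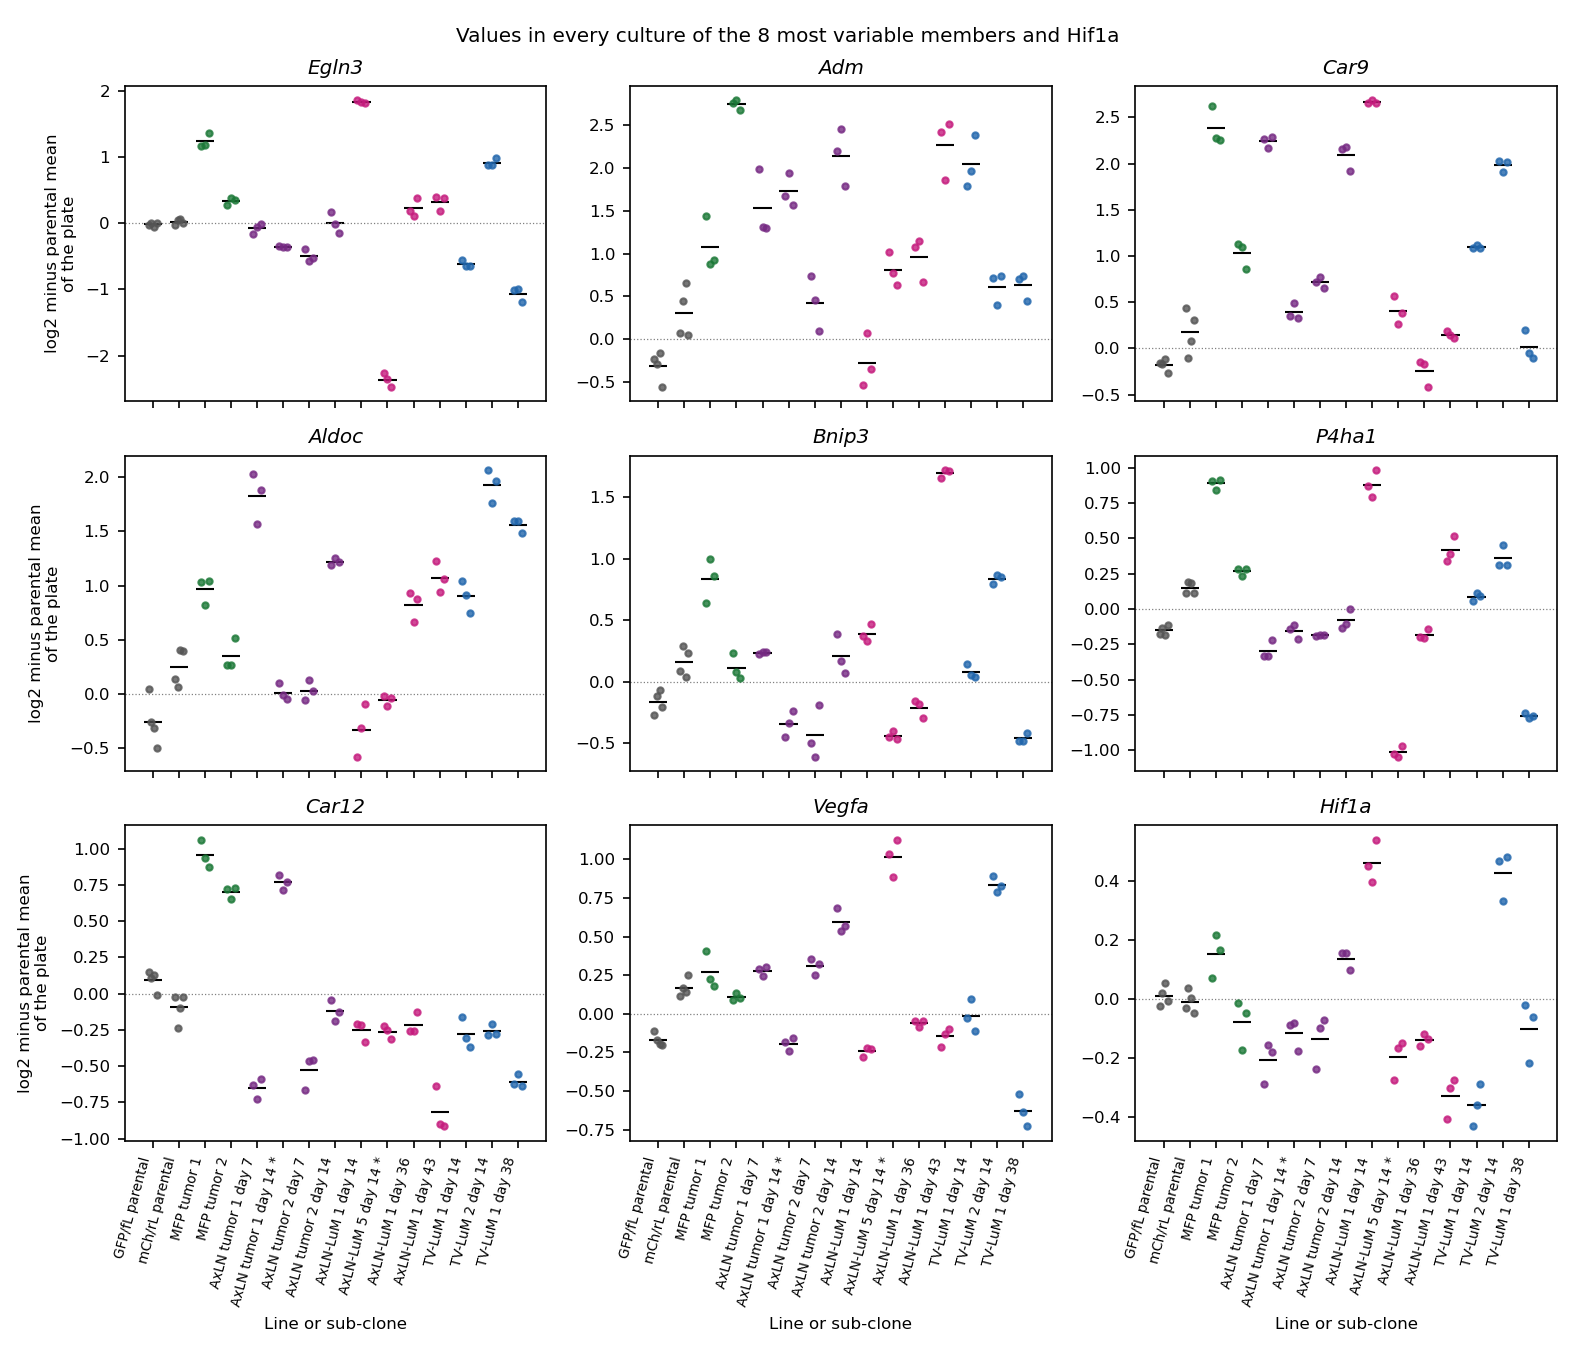
Log2 intensity minus the parental mean of the plate in every culture (points, colored by group) and the mean of each line or sub-clone (black bars) for the 8 members with the widest range and Hif1a, on an axis of its own for each gene. Points of 1 sub-clone lie close together beside the distances between sub-clones, with Adm the most scattered.

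The glycolytic enzymes did not move as a block. Aldoc, an aldolase isoform of brain, had the widest range of them, 2.25, from parental log2 intensities of 5.87 to 6.36 in GFP/fL and 6.38 to 6.77 in mCh/rL, and was called higher in 9 sub-clones. It was at 1.93 in TV-LuM 2 day 14, 1.82 in AxLN tumor 1 day 7, 1.56 in TV-LuM 1 day 38, 1.22 in AxLN tumor 2 day 14, 1.07 in AxLN-LuM 1 day 43, 0.97 in MFP tumor 1, 0.90 in TV-LuM 1 day 14, 0.82 in AxLN-LuM 1 day 36 and 0.35 in MFP tumor 2. AxLN tumor 2 day 7 at 0.03 and AxLN tumor 1 day 14 at 0.01 stayed near the mean of both parental lines. So did AxLN-LuM 5 day 14 at -0.06, and AxLN-LuM 1 day 14 was lower at -0.33. These sub-clones carry mCh/rL, whose parental arrays stood above that mean, at 0.14 and 0.07 on plate 1 and 0.41 and 0.40 on plate 2. AxLN tumor 2 day 7 and AxLN-LuM 5 day 14, both on plate 2, thus lay below their own parental line. Aldoc was the one glycolytic enzyme called higher in TV-LuM 1 day 38, where 8 of the 12 were called lower.

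Several other enzymes, singled out after their values were seen, had more lower than higher calls. Tpi1, Ldha, Pgam1 and Pkm, which encode triosephosphate isomerase, lactate dehydrogenase A, phosphoglycerate mutase and pyruvate kinase, were called lower in 8, 9, 7 and 6 sub-clones and higher in 1 each. Pfkl, the liver phosphofructokinase, was called lower in 7 and higher in 5, and Pgk1, phosphoglycerate kinase, lower in 4, higher in 1 and not called in 8. Gapdh, of the wider list below, was called lower in 1 and higher in 1. Low values of Tpi1, Pfkl, Pgam1, Pkm and Ldha were found in AxLN-LuM 5 day 14, with -1.29 for Tpi1, -1.09 for Pfkl, -0.69 for Pkm and -0.59 for Ldha, and in AxLN tumor 2 day 7, with -0.80 for Pfkl, -0.69 for Pgam1 and -0.68 for Tpi1, while Pgk1 was lowest in TV-LuM 1 day 38 at -0.72. AxLN-LuM 5 day 14 and AxLN tumor 2 day 7 also had the lowest cell cycle lists. Pfkl at 0.41, Pgam1 at 0.37, Tpi1 at 0.34, Pgk1 at 0.34 and Ldha at 0.22 were called higher in AxLN-LuM 1 day 43. There 8 of the 12 enzymes were called higher and Hk1 lower, and MFP tumor 1 had 7 higher and 0 lower. The higher call of Pkm was in AxLN-LuM 1 day 14. Pgam1 was measured on 2 probe sets, whose sub-clone means had the same sign in 10 of 13 sub-clones.

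The 3 phosphofructokinase genes differed in direction. Pfkm, the muscle isoform, was called higher in 10 sub-clones and lower in 0, with a median of 0.54 and a highest value of 0.84 in MFP tumor 1. Pfkl was lower in the 4 AxLN sub-clones, between -0.80 and -0.17, in which Pfkm stood between 0.46 and 0.74. Pfkp, the platelet isoform, was called higher in 5 and lower in 4 sub-clones, from -0.37 in TV-LuM 1 day 38 to 0.77 in TV-LuM 2 day 14. Hk2, the hexokinase most often raised in tumors, was called higher in 8 sub-clones and lower in 2, and it reached 0.98 in AxLN-LuM 5 day 14 and 0.95 in AxLN tumor 2 day 7, the sub-clones in which Pfkl and Tpi1 were lowest. Hk1 ranged only from -0.28 to 0.34. In all 4 AxLN sub-clones Hk2 and Pfkm were thus called higher and Pfkl and Tpi1 lower, but against the own parental line Pfkm in AxLN tumor 1 day 14 was at 0.28 and not called. Pgk1 was called lower in AxLN tumor 2 day 7 alone of the 4, and in AxLN tumor 1 day 14 Pgam1, Pkm and Ldha were not called. Eno2, the neuronal enolase, was measured on a dim probe set and was called higher in 3 sub-clones, with 0.92 in MFP tumor 1.

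Among transporters and switches, Slc2a1, the glucose transporter GLUT1, was called higher in AxLN-LuM 1 day 43 at 0.65, AxLN-LuM 1 day 14 at 0.54 and MFP tumor 1 at 0.29, and lower in 6 sub-clones down to -0.39. Pdk1 encodes a kinase that inhibits pyruvate dehydrogenase. It was highest in AxLN-LuM 1 day 43 at 1.02, MFP tumor 1 at 0.72 and TV-LuM 2 day 14 at 0.67. The same 3 sub-clones led for Bnip3. Pfkfb3, which makes the activator of phosphofructokinase, was called higher in 4 sub-clones, AxLN-LuM 5 day 14 at 1.21, AxLN tumor 2 day 14 at 1.19, MFP tumor 2 at 1.12 and AxLN tumor 1 day 14 at 0.73, and lower in 0. Its cultures varied more than those of other members, with an SD of up to 0.50. Its relative Pfkfb4 was called lower in 2 TV-LuM sub-clones and higher in 0.

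The parental lines, which differ in reporter, also differed in these genes. Of the 28 members, 11 were called higher in the mCh/rL line than in the GFP/fL line and 1 lower, or 39.3% and 3.57%, against 10.4% and 11.7% of all genes. Higher were Adm by 0.61 (SE 0.19), Aldoc by 0.51 (SE 0.11), Ndrg1 by 0.40 (SE 0.04), Car9 by 0.36 (SE 0.09), Vegfa by 0.34 (SE 0.05), Bnip3 by 0.33 (SE 0.07), P4ha1 by 0.30 (SE 0.04), Pfkl by 0.22, Pfkp by 0.18, Slc2a1 by 0.18 and Pgk1 by 0.14. Ndrg1 had the smallest adjusted p, 5.5e-10, with log2 intensities of 9.79, 9.86, 9.70 and 9.71 in GFP/fL and 10.18, 10.12, 10.21 and 10.15 in mCh/rL arrays. Car12 was the one lower gene, at -0.19 (SE 0.06, adjusted p = 0.0198), and Hif1a and Egln3 differed by -0.02 (SE 0.05) and 0.04 (SE 0.06), not called. By role, 5 of the 6 hypoxia targets outside metabolism and sensing were higher, 4 of 12 glycolytic enzymes, and P4ha1 alone of the 6 genes listed with oxygen sensing. Leaving out the arrays numbered replicate 2, of the parental lines and of the sub-clones, left 5 members called. Genes called between the parental lines fell from 2557 to 1223 of 11565 in the same fit. Because MFP sub-clones carried GFP/fL and both AxLN groups mCh/rL, a shared reference takes this difference into the sub-clone values.

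**Figure D4:**
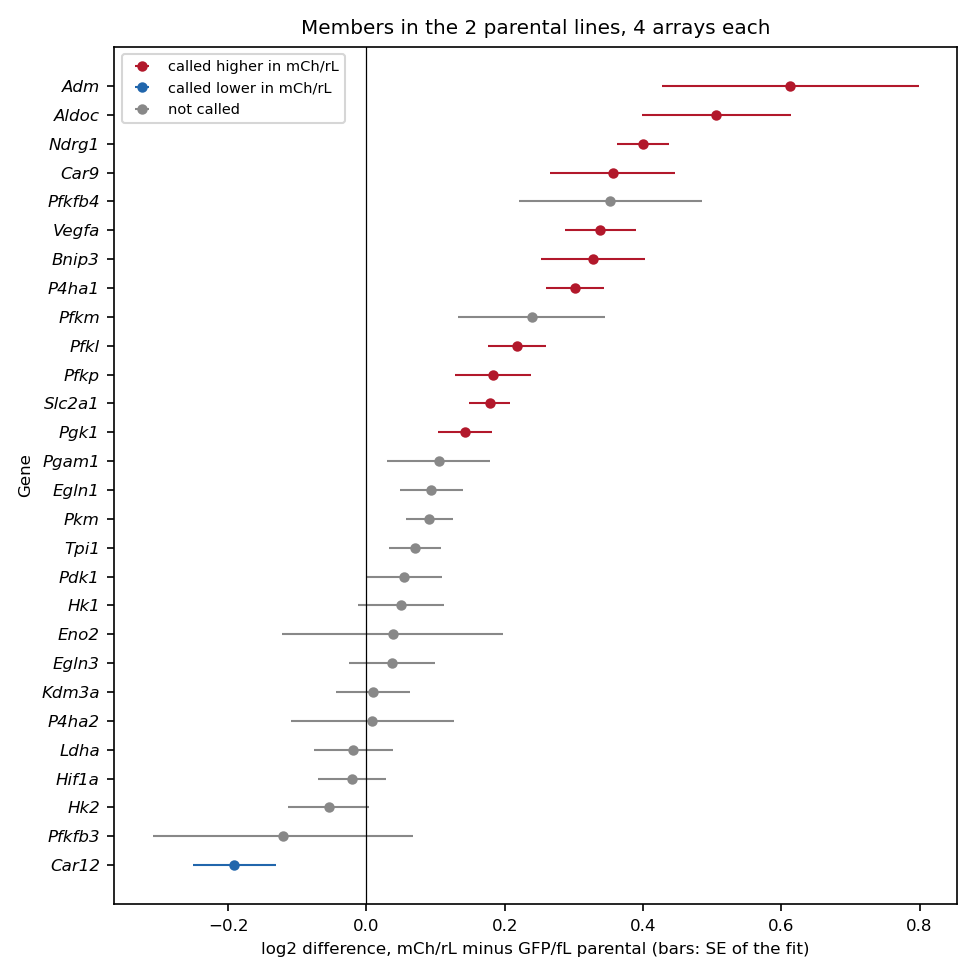
Log2 difference between the mCh/rL and GFP/fL parental lines for the 28 members (points, 4 arrays a line, bars the SE of the fit), colored by call. Adm at 0.61 and Aldoc at 0.51 head the 11 members called higher, and Car12 at -0.19 is the one called lower.

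The groups were compared with the sub-clone as the replicate, over 2 MFP, 3 AxLN, 3 AxLN-LuM and 3 TV-LuM sub-clones. No gene on the array passed the threshold in any of the 6 comparisons (limma, 0 of 11565, or 0.0%), so that 0 members were called. The numbers of genes at an unadjusted p under 0.05 follow for description.

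For AxLN versus MFP, 4 members reached an unadjusted p under 0.05, against 6.27% of all genes, and all 4 were lower in AxLN. Car12 differed by -1.26 (SE 0.23, adjusted p = 0.774), with means of -0.43 ± 0.28 (SD, n = 3) in AxLN and 0.83 ± 0.18 (SD, n = 2) in MFP sub-clones. The difference was -1.53 on plate 1 and -1.23 on plate 2, -1.07 with the own parental line as reference, and -0.97 with the sub-clones marked as removed, since AxLN tumor 1 day 14 had the Car12 level of MFP cells. The others were Pfkl at -0.60 (SE 0.25), Pgam1 at -0.55 (SE 0.24) and Tpi1 at -0.47 (SE 0.19). Over the 28 members, 22 were lower in AxLN, with a median of -0.22 against -0.01 over all genes.

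For AxLN-LuM versus AxLN, 5 members reached an unadjusted p under 0.05, against 11.1% of all genes. Pfkl at 0.64 (SE 0.22), Tpi1 at 0.51 (SE 0.17) and Ldha at 0.34 (SE 0.14) were higher in AxLN-LuM, and Hk2 at -0.56 (SE 0.21) and Pfkfb3 at -0.70 (SE 0.29) lower, with adjusted p from 0.363 to 0.415. These differences rest on which sub-clones are counted, since with the sub-clones marked as removed Tpi1 differed by 0.09, Ldha by 0.10 and Pfkl by 0.25. For AxLN-LuM versus MFP, 2 members did, against 3.58% of all genes, Car12 at -1.26 (SE 0.23, adjusted p = 0.637) and Eno2 at -0.68 (SE 0.29).

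TV-LuM sub-clones had the lowest mean Hk2 of the 4 groups, -0.11. Their values overlapped those of AxLN-LuM sub-clones, whose mean was 0.25, with a difference of -0.36 (SE 0.21). For TV-LuM versus AxLN, 4 members reached an unadjusted p under 0.05, against 11.3% of all genes, namely Hk2 at -0.92 (SE 0.21, adjusted p = 0.307), Pfkfb3 at -0.65, Pfkfb4 at -0.43 and Pfkl at 0.52. Hk2 was at 0.01, -0.16 and -0.18 in TV-LuM 1 day 14, TV-LuM 2 day 14 and TV-LuM 1 day 38, and at 0.62, 0.95 and 0.85 in AxLN tumor 1 day 7, tumor 2 day 7 and tumor 2 day 14, so that the groups did not overlap, and the difference was -0.61 on plate 1 and -1.07 on plate 2. For TV-LuM versus MFP, 4 members did, against 8.69% of all genes, with Car12 at -1.21 (SE 0.23), Hk2 at -0.65, Eno2 at -0.66 and Egln1 at -0.36, and 26 of 28 members were lower, with a median of -0.24 against -0.01 over all genes. For TV-LuM versus AxLN-LuM the only one was Pfkfb4 at -0.41 (SE 0.18), against 10.1% of all genes. Egln3, Adm, Car9 and Aldoc, which varied most between single sub-clones, were in none of these sets.

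**Figure D5:**
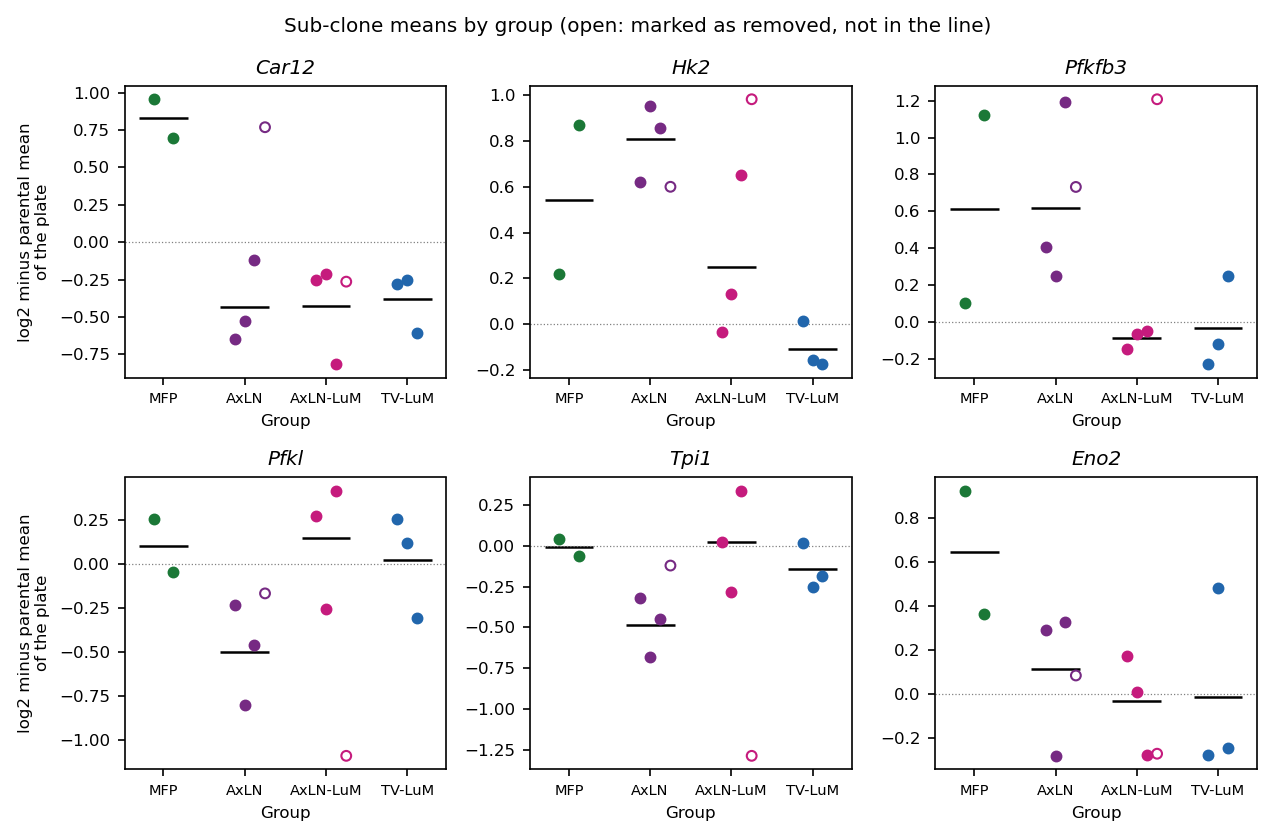
Sub-clone means (filled points) by group for 6 members, with the group mean as a line and the sub-clones marked as removed as open points, in log2 intensity minus the parental mean of the plate. Car12 is higher in both MFP sub-clones, at 0.96 and 0.70, than in every filled point of the other groups, and Hk2 is at most 0.01 in the 3 TV-LuM sub-clones.

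A wider list of 60 genes of the same pathways, among them pyruvate dehydrogenase subunits, other HIF subunits and further hypoxia targets, had 53 measured and 45 above the filter. Between 8 and 22 of the 45 were called higher in a sub-clone and between 6 and 17 lower, or 17.8% to 48.9% and 13.3% to 37.8%, where all genes gave 17.9% to 36.0% and 14.8% to 29.7%. The widest range was that of Edn1, the gene of endothelin 1, which ran from -2.69 in AxLN-LuM 1 day 14 and -2.03 in MFP tumor 1 to 1.90 in AxLN tumor 2 day 7. Bhlhe40, a transcriptional repressor induced by hypoxia, was likewise lowest in AxLN-LuM 1 day 14 at -1.80 and MFP tumor 1 at -1.20 and highest in AxLN-LuM 5 day 14 at 0.79. The 2 sub-clones with the highest Egln3, P4ha1 and Car9 were therefore those with the lowest Edn1 and Bhlhe40. The same MFP tumor 1 and AxLN-LuM 1 day 14 had the lowest medians of the epithelial markers, -0.48 and -0.43, and the highest single values of the fibroblast list, 1.92 and 1.51, where the medians of that list were -0.03 and -0.0023, and the part of these markers in the result was not tested. Ddit4, an inhibitor of mTORC1, ranged from -1.05 in AxLN tumor 1 day 14 to 2.14 in TV-LuM 2 day 14, and Ciart, a circadian repressor, from -1.12 in AxLN-LuM 1 day 14 to 1.53 in AxLN-LuM 5 day 14. Pdk2, a second kinase of pyruvate dehydrogenase, was called higher in 10 sub-clones and lower in 0. Stc2, the gene of stanniocalcin 2, was called lower in 9 and higher in 1. Higd1a and Ak4, both mitochondrial, were highest in AxLN-LuM 1 day 43 at 0.84 and 0.67, the sub-clone with the highest Bnip3 and Pdk1.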

How the data were processed

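Expression was read on 48 arrays of the Affymetrix type Mouse Gene 2.1 ST. Per the labels and the study's methods, the authors ran RMA within the Expression Console of Affymetrix (version not given in the sources used here), scaled the 2 plates to each other and deposited intensities on a linear scale, which were converted to log2 here. Array totals lay between 6414229 and 6658225, and 0 pairs of arrays were identical. The number of arrays limits the precision.

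Of 41345 probe sets, 23521 carry 1 gene symbol, 1820 several and 16004 none. The brightest single-symbol probe set stood for each of 18964 protein-coding genes, and 11565 genes whose mean log2 reached the array-wide median (3.11) were tested. Levels of different probe sets were not compared. Columns were split into plate 1 (the first 24) and plate 2 (the last 24). All 6 arrays whose labels name plate 2 are among the last 24, and a plate profile from the parental arrays separated both sets.

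Sub-clones were compared with the mean of both parental lines in limma 3.58.1 (lmFit and eBayes, R 4.3.3) on 47 arrays, with plate as a covariate and 31 residual degrees of freedom. Cultures of a sub-clone were the replicates there, so these adjusted p-values describe that sub-clone and not its tissue. Groups were compared on 11 sub-clone means after subtraction of the parental mean of the plate, with 7 residual degrees of freedom. P-values were adjusted over all genes by Benjamini-Hochberg and called under 0.05. Values in every sub-clone are given for the 8 members above the filter with the widest range and for Hif1a, and other members by role with up to 4 examples or by counts. Members and lists were chosen with earlier results of these data known. On simulated data over 11565 genes, the comparison of 1 sub-clone with the parental lines recovered 100% of changes of 1 on the log2 scale. It recovered 75% of changes of 0.5, and AxLN versus MFP recovered 87% of changes of 1.5, with 6.09% of its calls false. Changes were planted in these data, whereas the measured AxLN versus MFP comparison called 0 genes. There Car12, at -1.26, had an adjusted p of 0.774 (limma), so the simulated share does not give the power of that comparison.

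Alternatives were quantile normalization, other filters, the mean of all probe sets, no plate term, the own parental line, the removed array kept, replicates or sub-clones left out, and arrays as replicates with a random or a replicate block. Fits without the removed sub-clones and differences within plates were added after seeing the data. Python 3.11.15, pandas 2.3.3 and matplotlib 3.10.9 were used.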

Additional observations from a re-analysis of the deposited data

Results flagged for a closer look

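In groups of 4 values, 4 of 112 had 1 value far from the other 3 (past Dixon's critical value), and chance gives about 1 in 20. Pgk1 was at -0.37 in AxLN tumor 2 day 7 and between -0.02 and 0.01 in the other AxLN sub-clones. In AxLN-LuM 5 day 14, marked as removed, Pfkfb3 was at 1.21 (others -0.15 to -0.05) and Vegfa at 1.02 (others -0.24 to -0.06). Car12 was at -0.82 in AxLN-LuM 1 day 43 (others -0.26 to -0.21).

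In 5 cases every sub-clone of a group lay above the parental lines and every sub-clone of another below. With the sub-clones marked as removed included, the means differed by 0.18 for Egln1 between MFP and AxLN, by 0.36 for Egln1 between MFP and TV-LuM, by 0.76 for P4ha1 between MFP and AxLN, by 1.21 for Car12 between MFP and AxLN-LuM, and by 1.21 for Car12 between MFP and TV-LuM, MFP being higher each time. MFP, with only 2 sub-clones, was part of every case, and the share of all genes with such a split is not given. The cases therefore do not set the members apart from the array. The opposite directions themselves were not tested.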

How the results depend on the processing

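Without an intensity filter the F test called 28 of 29 members. Under the other alternatives run it called every member tested (28 of 28, and 21 of 21 with the stricter filter). With the stricter filter it also called 7413 of 7437 genes. Counts in single sub-clones moved by less than 1.5 times except in 2 cases. MFP tumor 1 had 11 members called within plate 1, where it has 1 array, against 19, and leaving out 1 replicate number gave 9 to 14 in AxLN tumor 1 day 14 and 5 to 12 between the parental lines. No called value of a named member changed sign. Of the named values in sub-clones, 47 lost their call under an alternative, 29 gained one, and 9 uncalled ones changed sign by more than their standard error.

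Between groups, the count of 0 members held under normalization, filter, baseline and left-out sub-clones. When arrays were fitted with sub-clone as random block, it was 1 for AxLN versus MFP (67 of 11565 genes) and 3 for AxLN-LuM versus AxLN (378 genes). It was 1 for AxLN-LuM versus MFP (31 genes) and 2 for TV-LuM versus AxLN (443 genes). For TV-LuM versus MFP it was 1 (166 genes), and for TV-LuM versus AxLN-LuM 0 (155 genes). With plate as a covariate it was 1 each for AxLN-LuM and TV-LuM versus MFP (7 and 35 genes). Car12 was called lower in all 3 comparisons with MFP under the random block. Arrays with a replicate block, which take cultures for independent samples, gave 9, 16, 4, 9, 7 and 9 members in the order AxLN versus MFP, AxLN-LuM versus AxLN, AxLN-LuM versus MFP, and TV-LuM versus AxLN-LuM, AxLN and MFP. In the same order, the replicate block called 1640, 2901, 881, 2429, 3157 and 2212 of 11565 genes. Same-numbered cultures did not vary together (median r 0.01, range -0.08 to 0.07), so the numbers pair no samples. Against the parental lines the replicate block gave 239 calls, as did the fit without it.

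The member differences between groups at an unadjusted p under 0.05 had the same sign on both plates in 20 of 20 cases. They were picked for that p in these same sub-clones, with 1 or 2 sub-clones a side on each plate. MFP tumor 1 was on both plates, and several cases share a gene. The count is therefore no independent check. Dim probe sets (Adm, Eno2, Pfkfb3, Pfkfb4) limit what can be seen of those genes.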

Other observations

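The array of MFP tumor 1 that the labels mark as removed was close to the retained cultures in the members that varied most, with 1.29 for Egln3, 1.18 for Adm, 2.52 for Car9, 1.06 for Car12 and 0.17 for Vegfa. For members with a second single-symbol probe set, the dimmer set had the same sign in 12 of 13 sub-clones for Car9 and Ndrg1, 11 for Hif1a and Slc2a1, 10 for Pgam1 and 8 for Pdk1, whose second set was near background with a mean log2 intensity of 1.83.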
